A study of Mus musculus with 21 samples.

Results

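The comparison described here is dexamethasone for 6 d against dexamethasone for 24 h in cultured fat cells, on 6 of the 21 arrays of the series: the 3 labelled Dex 6 d and the 3 labelled Dex 24 h. The arrays were chosen by these labels alone. All were hybridised with RNA of 3T3-L1 cells, an established mouse line of fibroblast-like preadipocytes that stores fat once differentiated, here differentiated for 14 days. Dexamethasone (Dex), a synthetic glucocorticoid, was used at 20 nM, begun 2 h, 24 h or 6 d before the RNA was taken, with 3 arrays at each time and 3 untreated control arrays (0 h). A parallel course with tumor necrosis factor-alpha (TNF) had the same times and 3 arrays each. The study asked how adipocyte transcription changes as insulin resistance develops. The labels give 1 control group only, name no vehicle, do not say at which day of differentiation each treatment began, and call the replicates biological without naming separate cultures, so p-values measure the spread between these arrays. The longer exposure to Dex cannot be told apart from the earlier start or later harvest that goes with it. In RNA from a whole dish, fewer cells of a type and less RNA per cell cannot be told apart.

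Glucocorticoids enter the cell and bind the glucocorticoid receptor, which then binds DNA near target genes such as Fkbp5, Tsc22d3 and Per1 and changes their transcription. In fat they are known both for promoting differentiation of preadipocytes and, at high level over days, for insulin resistance and altered fat storage. Adipocytes make triglyceride from fatty acids and glycerol phosphate, synthesise cholesterol through a chain of enzymes under control of the SREBP factors, secrete adipokines and acute phase proteins, and lie in a collagen matrix that they and their precursors make.

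Levels below are log2 values after robust multi-array averaging (RMA), 1 probe set for each gene. A change is the mean of the 3 arrays at 6 d minus the mean of the 3 arrays at 24 h, on the log2 scale, with its standard error from limma. A gene rose or fell where limma's two-sided p, adjusted by the Benjamini-Hochberg method over 12156 genes tested, was below 0.05. Between 24 h and 6 d of Dex 879 genes (7.23% of those tested) passed: 236 rose (1.94%) and 643 fell (5.29%). The largest rise was 8.81-fold and the largest fall 14.8-fold, and 32 of the genes that rose and 77 of those that fell changed at least 2-fold. Of the 879, 875 had no overlap between the 3 arrays at 24 h and the 3 at 6 d, against 26.0% of all genes tested. The median change over all genes was -0.0174. The count depended on single arrays: it was 442 without Dex 24 h replicate 1, 453 without Dex 24 h replicate 2 and 525 without Dex 6 d replicate 1, and 83 where all 21 arrays of the series shared 1 estimate of the spread.

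**Figure D1:**
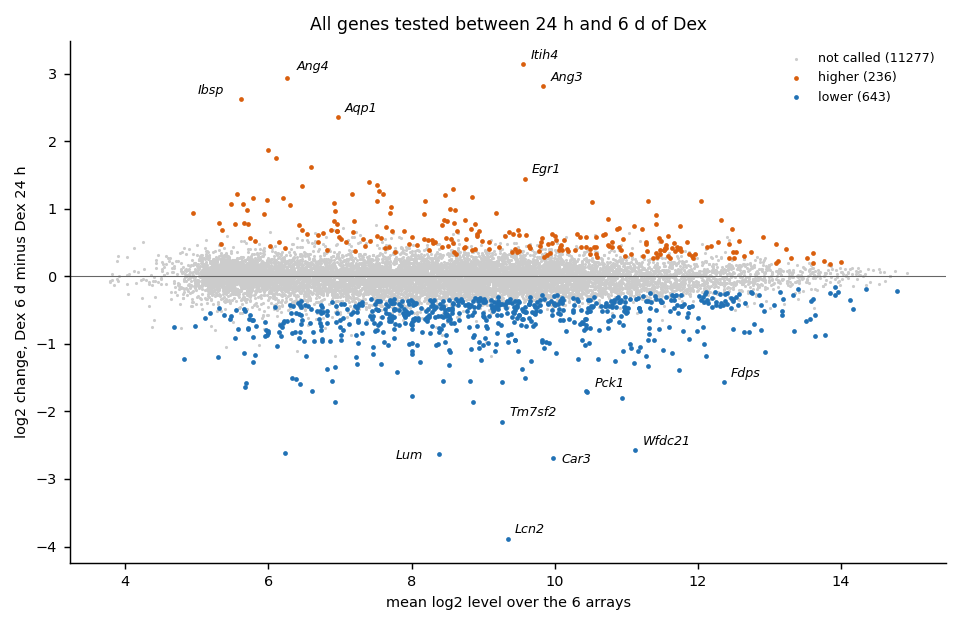
Log2 change from 24 h to 6 d of Dex (vertical axis) against the mean log2 level over the 6 arrays compared (horizontal axis), 1 point for each of the 12156 genes tested. The 236 genes that rose and the 643 that fell are coloured, and the named genes Itih4, Ang3 and Lcn2 lie at the extremes.

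One array of the later group stood apart in the signal of its control probe sets. On the control probe sets of Actb and Gapdh the signal at the 3' end exceeded that at the 5' end by 0.777 on Dex 6 d replicate 2 and by 0.021 to 0.283 on the other 11 control and Dex arrays; this 3' minus 5' difference is a measure of RNA quality and labelling. On that array 24 genes lay more than 1 log2 unit from both other arrays of its group. The same count was 0 on Dex 6 d replicate 1, 5 on Dex 6 d replicate 3, 26 on Dex 24 h replicate 3 and 71 on control replicate 3. By this measure Dex 6 d replicate 2 was the highest of its group but not of the 12 arrays. Its array weight in limma, which is lower for a more variable array, was 0.186, the lowest of the 12. That of control replicate 3 was 0.203. Without Dex 6 d replicate 2, 831 genes were called, 169 higher and 662 lower. Of these, 638 were also called with it, all 638 in the same direction. The share of calls that were higher depended on scaling: it was 26.8% on the deposited values, 43.9% after centring each array on its median, 38.4% after quantile normalization and 33.8% after cyclic loess. Of the 163 called genes that the rule for naming genes picked, 109 kept their call without each of the 12 control and Dex arrays in turn. A gene said below to have risen or fallen kept its call in all 12 of those fits unless an exception is given. List members given by their change alone lay outside the naming rule and were chosen after their values were seen.

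Genes known to be induced by glucocorticoids moved both ways between 24 h and 6 d. Of 35 tested genes on a list of glucocorticoid-induced genes, 5 rose and 4 fell, 26 did not pass, and the median change was 0.05; the share called was 25.7%, against 7.23% of all genes. Only 2 or 3 rose without any 1 of the Dex 24 h arrays, Dex 6 d replicate 1 or Dex 2 h replicates 1 and 2. The same 35 genes had a median of 1.02 at 24 h against control and 1.18 at 6 d against control. Against control 16.6% of all genes were called at 24 h and 28.8% at 6 d. Both of these contrasts share arrays with the comparison, so their values are only set side by side.

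Fkbp5, a co-chaperone that dampens the receptor, read 8.86, 8.97 and 9.12 in control, 13.05, 13.03 and 13.10 at 24 h and 13.03, 12.89 and 13.12 at 6 d. The 24 h and 6 d arrays overlapped, and the change was -0.05 ± 0.08, adjusted p = 0.809. Tsc22d3, which encodes the anti-inflammatory protein GILZ, changed by 0.22 ± 0.08, adjusted p = 0.106, with a change against control of 2.20 at 24 h and 2.41 at 6 d. For the clock gene Per1 the change was 0.03 ± 0.11, adjusted p = 0.921. The receptor's own gene, Nr3c1, was lower than in control at both times, by a change of -0.97 at 24 h and -0.89 at 6 d, and did not pass the test between them (0.09 ± 0.09, adjusted p = 0.678); of its 4 other probe sets above the filter, 3 had the opposite sign. On the probe set used for each of these 4 genes, the 24 h and 6 d levels differed by no more than 0.22. Other probe sets above the filter changed by -0.31 for Fkbp5, by -0.13 to 0.13 for Tsc22d3 and by -0.36 to 0.37 for Nr3c1.

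The 4 members that fell were Lcn2, Ddit4, Dusp1 and the phosphatidate phosphatase gene Lpin1 (-0.35, a call lost without any 1 of 5 arrays). Ddit4, an inhibitor of the growth kinase mTORC1, read 11.88, 11.84 and 11.44 at 24 h and 10.75, 10.51 and 10.58 at 6 d, with no overlap, and fell by 1.11 ± 0.10 (adjusted p = 2.1e-05); its changes against control were 1.39 at 2 h, 0.19 at 24 h and -0.91 at 6 d. Dusp1, a phosphatase that switches off MAP kinases, fell by 0.57 ± 0.11 (adjusted p = 0.00748), after changes against control of 2.64 at 2 h and 0.87 at 24 h. Among the 5 that rose, Mertk, a receptor for uptake of dying cells, read 9.79, 9.79 and 10.02 at 24 h and 10.40, 10.41 and 10.42 at 6 d, a change of 0.55 ± 0.10, adjusted p = 0.00373. Its arrays did not overlap, and its level at 6 d was close to that at 2 h, 10.46, 10.43 and 10.43. Fam107a, an actin-binding protein, was the member with the largest rise, 0.70 ± 0.17, adjusted p = 0.0214, from 12.20, 12.15 and 12.03 to 12.77, 12.75 and 12.97; it lost its call without any 1 of 5 arrays, with an adjusted p up to 0.0773.

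Hsd11b1 encodes the enzyme that regenerates active glucocorticoid from its inactive form. It read 12.99, 12.98 and 12.62 in control, 12.31, 12.27 and 12.06 at 24 h and 11.14, 11.07 and 11.01 at 6 d. The levels stepped down without overlap, and the change from 24 h to 6 d was -1.14 ± 0.10 (adjusted p = 1.3e-05). It was the only 1 of 13 tested genes of the receptor machinery (receptor, chaperones, coregulators) to be called. That was 7.69% of the list, near the 7.23% of all genes.

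Secreted acute phase proteins, made by liver and fat in inflammation, held both the largest fall and the largest rise of the comparison. Of 21 tested members, 8 fell, 3 rose and 10 were not called, and the median change was -0.45. The share called was 52.4%, against 7.23% of all genes. Across the fits that left out 1 array, 7 to 10 fell and 2 to 3 rose.

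Lcn2, lipocalin 2, a protein that binds bacterial iron carriers, read 5.35, 5.33 and 5.41 in control, 6.94, 6.73 and 7.47 at 2 h, 11.32, 11.38 and 11.17 at 24 h and 7.72, 6.62 and 7.87 at 6 d. All 3 arrays at 24 h were far above all others, and those at 6 d lay between control and 24 h. The change from 24 h to 6 d was -3.89 ± 0.26 (adjusted p = 1.4e-06), or 14.8-fold, and -3.49 was the change without Dex 6 d replicate 2. Against control, Lcn2 was still higher at 6 d, by 2.04 (adjusted p = 3.5e-05). Lcn2 is on the lists of glucocorticoid-induced genes and of adipokines too.

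Serpina3n, a protease inhibitor, read 8.63, 8.63 and 8.49 at 24 h and 7.63, 7.36 and 7.73 at 6 d, the latter overlapping its control arrays, 7.34, 7.70 and 7.57. It fell by 1.01 ± 0.12 (adjusted p = 1.8e-04). The carrier proteins Orm2 and Orm3, orosomucoids, fell by 1.13 ± 0.16 and 1.37 ± 0.22; orosomucoid genes are close copies, so their probe sets may share signal. Haptoglobin, Hp, changed by -0.86, complement C1s1 by -0.98 and the pentraxin Ptx3 by -0.56, and these passed too, Ptx3 not without any 1 of 3 arrays. Lbp, which hands bacterial lipopolysaccharide to its receptor and was named for the size of its change, fell by 1.78 ± 0.20 (adjusted p = 9.8e-05), from 8.78, 8.82 and 9.09 to 7.25, 6.82 and 7.29.

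Itih4, of the inter-alpha-trypsin inhibitor heavy chain family, moved the other way. It read 8.03, 8.38 and 8.25 in control, 8.04, 8.23 and 7.69 at 24 h and 11.25, 11.58 and 10.56 at 6 d, so the rise lay between day 1 and day 6. Its change was 3.14 ± 0.22, adjusted p = 1.8e-06, or 8.81-fold, and 2.91 without Dex 6 d replicate 2. The ferroxidase ceruloplasmin, Cp, and the complement protease Masp1 rose as well, each by 0.59, with the call of Masp1 lost without any 1 of 4 arrays. The serum amyloids did not pass the test: Saa1 -0.45, Saa2 -0.16 and Saa3 -0.35.

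**Figure D2:**
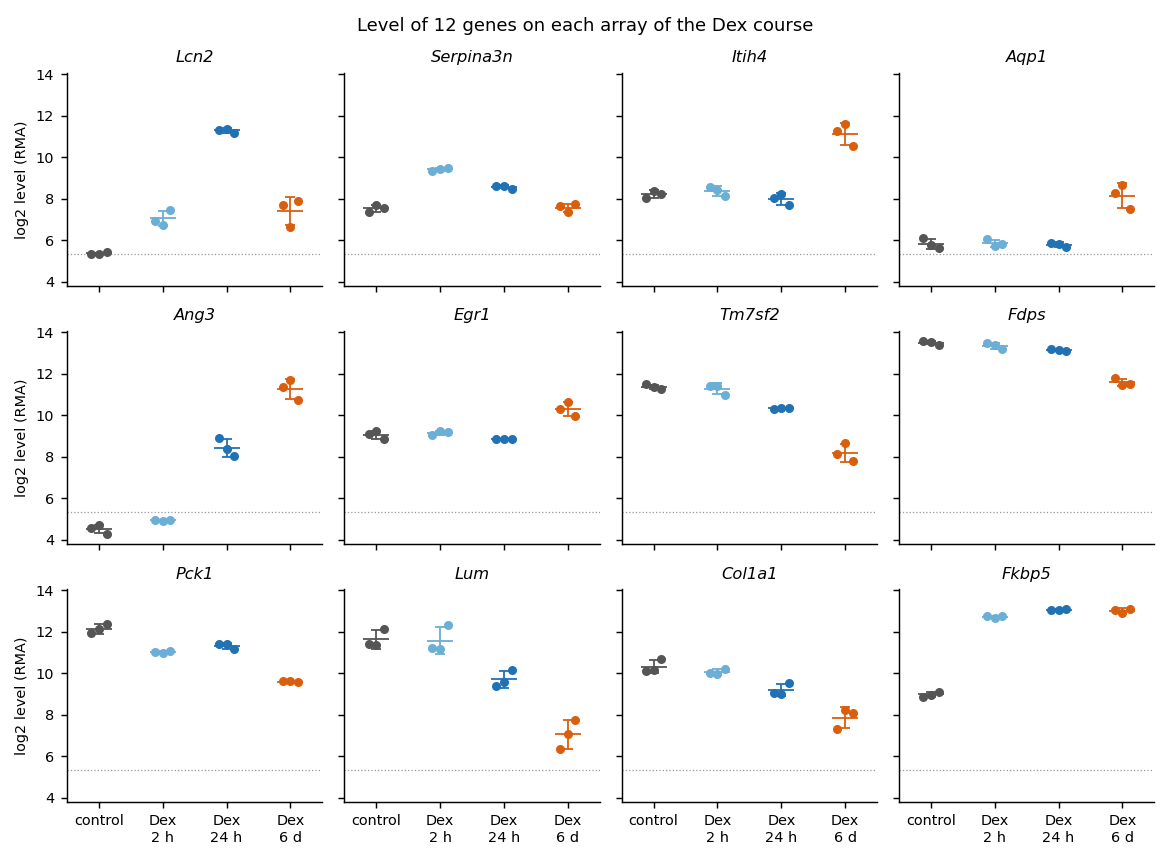
Log2 level of 12 genes on the 12 control and Dex arrays, 1 point per array, with the group mean and SD (n = 3). The dotted line marks 5.34, the filter level below which a value is near background. Itih4, Aqp1 and Egr1 are highest at 6 d, Lcn2 peaks at 24 h, and Fkbp5 is as high at 6 d as at 24 h.

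Apart from Itih4, the genes with the largest rises were of mixed function, and several had not moved at 24 h. Aqp1, a water channel, read 6.10, 5.77 and 5.63 in control, 5.85, 5.84 and 5.66 at 24 h and 8.29, 8.66 and 7.49 at 6 d. The control and 24 h arrays overlapped and all 6 d arrays were higher, a change of 2.36 ± 0.23, adjusted p = 2.7e-05. Cyp26b1, which degrades retinoic acid, behaved alike, with 5.86, 5.76 and 5.72 at 24 h and 7.43, 7.46 and 7.31 at 6 d (1.62 ± 0.12, adjusted p = 3.2e-06); its change at 24 h against control was 0.16.

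Ang3, an angiogenin-family ribonuclease, climbed in steps: 4.58, 4.69 and 4.28 in control, 8.89, 8.38 and 8.02 at 24 h and 11.34, 11.68 and 10.73 at 6 d, with no overlap between any of these groups. Its change from 24 h to 6 d was 2.82 ± 0.23, adjusted p = 6.1e-06. The probe set for its close paralog Ang4 changed by 2.94 ± 0.23, adjusted p = 5.1e-06, and signal of the pair may be shared. Ang4, Ibsp (bone sialoprotein, 2.62 ± 0.15), the intermediate filament gene Synm (1.87 ± 0.18) and the glutathione transferase Gsta3 (1.75 ± 0.17) had 24 h means below 5.34. This level is the median of all values and near background, so their changes are lower limits. The other probe set of Synm above the filter changed by 1. On the control, Dex, TNF 24 h and TNF 6 d arrays, Ang4 and Ibsp exceeded 5.34 only at 6 d of Dex. Gsta3 exceeded it there and on Dex 24 h replicate 2. Among those arrays these genes, Synm apart, met the filter only through the group where they are high, so their rises are a description.

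Other large rises belonged to genes that Dex had already raised at 24 h. Cyp2e1, a cytochrome that oxidises ethanol and acetone, went from 6.36, 7.01 and 6.69 in control to 10.61, 11 and 10.64 at 24 h and 11.87, 11.70 and 12.02 at 6 d, with a change of 1.12 ± 0.16, adjusted p = 6.7e-04. Cyp2b10, a drug-metabolising cytochrome, changed by 1.36 ± 0.16, adjusted p = 2.1e-04. Vdr, the vitamin D receptor, read 7.29, 7.04 and 7.33 at 2 h, 6.83, 7.0 and 7.07 at 24 h and 7.84, 8.32 and 8.07 at 6 d, a change of 1.11 ± 0.14, adjusted p = 3.6e-04 without overlap. Retreg1, a receptor for turnover of the endoplasmic reticulum, rose by 1.29 ± 0.19 (adjusted p = 7.7e-04) and Ifi207, of a family of near-identical interferon-inducible genes, by 1.17 ± 0.19 (adjusted p = 0.00216). Hmga2, a chromatin protein of growing cells that was not called at 24 h against control (a change of 0.54), rose by 1.40 ± 0.20 (adjusted p = 7.6e-04).

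Immediate early genes, which growth factors and stress switch on within minutes, were the list with the most rises. Of 35 tested members, 10 rose, 1 fell (Dusp1) and 24 were not called, with a median of 0.21. The share called was 31.4%, against 7.23% of all genes. Without Dex 6 d replicate 2 the counts were the same and the median 0.35, and across the fits leaving out 1 array 8 to 13 rose. Egr1, a zinc finger factor, read 9.09, 9.23 and 8.86 in control, 8.85, 8.88 and 8.85 at 24 h and 10.29, 10.64 and 9.98 at 6 d. The 24 h arrays were nearly equal and all 6 d arrays were above every control array; the change was 1.44 ± 0.14, adjusted p = 3.4e-05.

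Its relative Egr2 rose by 1.23 ± 0.20 (adjusted p = 0.00159) from a 24 h mean near background, and Egr3 changed by 0.81. The stress factor Atf3 rose by 0.93 ± 0.13 (adjusted p = 6.7e-04), Ier5 by 0.94 ± 0.13 (adjusted p = 5.1e-04) and Myc, a growth factor-responsive regulator of ribosome production, by 0.83 ± 0.15 (adjusted p = 0.0034). The 2 other probe sets of Ier5 above the filter changed by 0.11 to 0.41. Junb, of the AP-1 family, changed by 0.78 and passed, while Fos at 0.48, Jun at -0.24 and Fosl1 at 0.65 did not. The NR4A receptors did not pass either, with changes of -0.31 for Nr4a1, -0.11 for Nr4a2 and -0.04 for Nr4a3. The 10 that rose were the 3 Egr genes, Atf3, Ier5, Myc, the matricellular gene Ccn1, Junb, and Klf10 and Zfp36l1, whose calls were lost without any 1 of 10 and of 5 arrays.

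The cholesterol synthesis pathway fell almost as a whole. Of the 20 members tested (5 of the 25 listed were not matched to a gene of the arrays), 19 fell, none rose and the remaining 1, the regulator Srebf2, changed by -0.24 without passing. The median was -1.10 against -0.0174 over all genes, where 5.29% fell. All 19 also fell in each fit that left out 1 of the 12 arrays, and the median without Dex 6 d replicate 2 was -1.26. The medians against control were -0.59 at 24 h, with 15 of 20 called lower, and -1.77 at 6 d, with 20 of 20 called lower. Of all 12156 genes, 1026 were called lower at 24 h and 1940 at 6 d.

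The falls covered the pathway from its first steps to its last. At the start of the mevalonate branch, Hmgcs1 changed by -0.93, Mvk by -0.87, Pmvk by -0.97 and Idi1 by -1.11. Mvd, the decarboxylase that yields isopentenyl diphosphate, read 9.29, 9.17 and 9.20 at 24 h and 7.73, 7.71 and 7.55 at 6 d, a change of -1.56 ± 0.11 (adjusted p = 2.0e-06). Fdps, which makes farnesyl diphosphate, read 13.17, 13.14 and 13.12 at 24 h and 11.78, 11.44 and 11.53 at 6 d, so that even this very bright probe set dropped without overlap, by 1.56 ± 0.09 (adjusted p = 3.5e-07), or 2.96-fold.

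At the steps committed to sterol, Fdft1 changed by -1.25 and the squalene epoxidase gene Sqle by -1.23 ± 0.17, adjusted p = 5.1e-04. Of the enzymes that trim lanosterol, Cyp51 read 10.34, 10.38 and 10.31 at 24 h and 8.85, 9.22 and 8.45 at 6 d, a change of -1.50 ± 0.17, adjusted p = 1.0e-04. Its change at 24 h against control was 0.11, so its arrays were close to control at 24 h and below all control arrays at 6 d. Hsd17b7, a sterol ketoreductase, read 10.03, 9.97 and 10.15 at 24 h and 8.41, 8.95 and 8.08 at 6 d and fell by 1.57 ± 0.16 (adjusted p = 4.9e-05).

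The largest fall of the pathway was in Tm7sf2, a sterol reductase, which read 11.49, 11.35 and 11.26 in control, 10.32, 10.37 and 10.34 at 24 h and 8.15, 8.64 and 7.79 at 6 d. These 3 groups did not overlap, and the change from 24 h was -2.15 ± 0.17 (adjusted p = 6.1e-06), or 4.44-fold. Lower down, Nsdhl changed by -1.29, Msmo1 by -1.18, Sc5d by -0.72, Dhcr7 by -0.97 and Ebp by -0.54, all among those that fell. Insig1, the sterol-sensing anchor of SREBP, changed by -1.08 and the sterol carrier Stard4 by -1.02, which also passed.

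Because these genes moved together, the 250 bases upstream of their RefSeq starts (build GRCm38.p6) were searched on both strands for the sterol regulatory element letters TCACNCCAC and for the CCAAT box, which NF-Y binds beside SREBP. Of the 19 that fell, 15 had an entry, and all 15 (100%) held CCAAT in at least 1 window, against 40.2% of the 9806 tested genes with an entry and 37.5% of all 27025 genes. TCACNCCAC was in 1 of 15 (6.67%), against 1.14% and 1.22%. A match is a description, not a site, and no match says only that these letters are not in the window. The windows of the 4 genes with the largest falls among the 15, and of Hmgcs1, chosen after its match was seen, are given 5' to 3' on the gene's strand, with matches to either pattern in capitals (CCAAT reads ATTGG on the opposite strand).
Tm7sf2, chr19:6067851-6068100, minus strand: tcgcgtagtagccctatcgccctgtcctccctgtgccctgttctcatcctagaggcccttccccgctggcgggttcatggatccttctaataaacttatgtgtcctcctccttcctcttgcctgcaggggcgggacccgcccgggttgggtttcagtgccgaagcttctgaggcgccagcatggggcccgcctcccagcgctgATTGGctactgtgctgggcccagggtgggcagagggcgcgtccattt
Hsd17b7, chr1:169969206-169969455, minus strand: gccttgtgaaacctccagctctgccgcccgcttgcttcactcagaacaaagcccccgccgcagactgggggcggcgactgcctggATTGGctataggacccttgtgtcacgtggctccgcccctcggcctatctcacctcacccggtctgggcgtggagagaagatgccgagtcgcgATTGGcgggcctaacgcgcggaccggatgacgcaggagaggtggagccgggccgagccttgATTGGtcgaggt
Mvd, chr8:122443423-122443672, minus strand: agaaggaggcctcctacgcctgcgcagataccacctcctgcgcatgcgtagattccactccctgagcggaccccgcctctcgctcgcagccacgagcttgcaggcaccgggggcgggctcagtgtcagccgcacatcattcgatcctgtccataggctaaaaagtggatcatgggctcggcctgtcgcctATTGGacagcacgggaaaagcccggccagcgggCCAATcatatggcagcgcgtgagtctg
Cyp51, chr5:4104698-4104947, minus strand: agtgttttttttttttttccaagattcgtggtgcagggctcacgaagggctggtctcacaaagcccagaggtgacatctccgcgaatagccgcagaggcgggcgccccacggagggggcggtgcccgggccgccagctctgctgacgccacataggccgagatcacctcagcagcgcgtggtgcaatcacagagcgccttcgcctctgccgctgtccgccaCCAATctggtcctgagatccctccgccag
Hmgcs1, chr13:119690101-119690350, plus strand: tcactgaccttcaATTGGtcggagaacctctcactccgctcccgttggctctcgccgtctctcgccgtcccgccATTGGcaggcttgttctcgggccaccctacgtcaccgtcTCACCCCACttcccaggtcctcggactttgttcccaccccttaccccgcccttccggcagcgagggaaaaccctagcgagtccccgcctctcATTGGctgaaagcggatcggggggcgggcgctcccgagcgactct

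**Figure D3:**
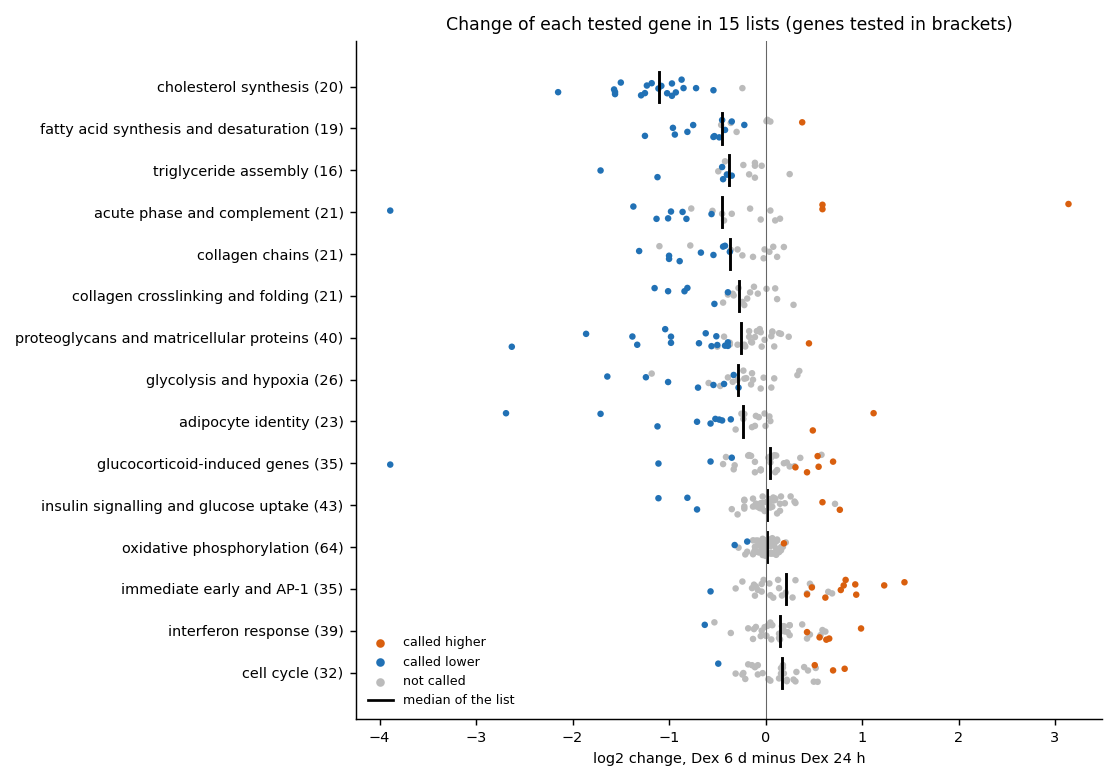
Log2 change from 24 h to 6 d of Dex for every tested member of 15 gene lists, 1 point per gene, with the list's median as a bar. All 20 cholesterol synthesis genes lie below 0, the immediate early genes mostly above it, and the glucocorticoid-induced genes around it.

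Fatty acid and triglyceride synthesis fell in part. Of 19 tested genes of fatty acid synthesis and desaturation, 12 fell and 1 rose, with a median of -0.45. The share called was 68.4%, against 7.23% of all genes. Without Dex 24 h replicate 2 only 7 fell. The 1 that rose was Srebf1, the regulator of the pathway (0.38 ± 0.09, adjusted p = 0.0214), a call lost without any 1 of 3 arrays, with an adjusted p up to 0.11. Fads2, the delta-6 desaturase of polyunsaturated fats, read 10.27, 10.37 and 10.26 at 24 h and 9.0, 9.30 and 8.84 at 6 d, a change of -1.25 ± 0.11 (adjusted p = 1.2e-05). The stearoyl-CoA desaturase Scd2 fell by 0.81 ± 0.12 (adjusted p = 0.00109) and the citrate carrier Slc25a1 by 0.75 ± 0.11 (adjusted p = 7.9e-04). Smaller falls that passed were -0.54 for Acly, -0.53 for Acaca and -0.42 for Fasn, the core enzymes from citrate to palmitate; Acly and Acaca lost their calls without any 1 of 4 and of 3 arrays.

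In triglyceride assembly 6 of 16 tested genes fell and none rose (37.5% called, against 7.23% of all genes), with a median of -0.38. Pck1, the enzyme of glyceroneogenesis that supplies glycerol phosphate to fat, read 11.92, 12.14 and 12.37 in control, 11.39, 11.39 and 11.15 at 24 h and 9.61, 9.62 and 9.56 at 6 d. The 6 d arrays were nearly equal and below all others, and the change was -1.71 ± 0.11 (adjusted p = 6.6e-07), or 3.28-fold. Agpat2, which adds the second fatty acid, fell by 1.12 ± 0.12 (adjusted p = 6.4e-05), and the final acyltransferases Dgat1 and Dgat2 by 0.44 ± 0.08 and 0.45 ± 0.09. Of 20 genes of lipolysis and the lipid droplet, 6 fell and 1 rose (median -0.17, 35% called). The rise was lost without any 1 of 7 arrays. The monoglyceride lipase Mgll fell by 0.91 ± 0.12 (adjusted p = 4.7e-04; 1 of its 3 other probe sets had the opposite sign), the lipase inhibitor G0s2 by 0.75 ± 0.14 and the droplet protein Plin4 by 0.52 ± 0.08.

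Genes that identify the adipocyte split. Of 23 tested, 9 fell, 2 rose and 12 were not called (median -0.23, 47.8% called against 7.23% of all genes). Adiponectin, Adipoq, read 14.72, 14.72 and 14.63 at 24 h and 14.73, 14.69 and 14.65 at 6 d, overlapping (0.0 ± 0.04, adjusted p = 0.992), and the fatty acid binding protein Fabp4 did not pass either (0.05 ± 0.04, adjusted p = 0.614); both probe sets were near the top of the scale, 15.06. The adipogenic factors Pparg (-0.22 ± 0.08, adjusted p = 0.109) and Cebpa (-0.14 ± 0.19, adjusted p = 0.755) were not called.

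By contrast Car3, the muscle and fat carbonic anhydrase, read 14.18, 14.24 and 14.49 in control, 10.95, 11.17 and 11.84 at 24 h and 8.12, 8.42 and 9.36 at 6 d. The groups did not overlap, and the change was -2.69 ± 0.26 (adjusted p = 2.8e-05), or 6.45-fold. The fatty acid receptor Ffar4 fell by 1.85 ± 0.25 (adjusted p = 5.3e-04), and Bscl2, seipin, needed to form lipid droplets, by 0.76 ± 0.12 (adjusted p = 0.00131). Among adipokines and secreted factors 6 of 15 tested fell and none rose (40% called, against 7.23% of all genes). Besides Lcn2 these included Retn, resistin (-0.57 ± 0.12, adjusted p = 0.00903), Rarres2, chemerin (-0.67 ± 0.08, adjusted p = 1.5e-04), and the growth factor Nrg4 (-1.30 ± 0.12, adjusted p = 2.0e-05). Angptl8, an inhibitor of lipoprotein lipase, fell by 0.91 ± 0.18 to a mean near background, a lower limit. Leptin, Lep, was below the filter and not tested.

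Genes of the extracellular matrix fell across its parts. Of 21 collagen chain genes tested, 9 fell and none rose (median -0.37, 42.9% called against 7.23% of all genes). When 1 array was left out 8 to 10 fell. Col1a1, the main chain of fibrillar type I collagen, read 10.13, 10.15 and 10.67 in control, 9.03, 9.01 and 9.53 at 24 h and 7.30, 8.22 and 8.09 at 6 d. All 6 d arrays were below all 24 h arrays, a change of -1.31 ± 0.22, adjusted p = 0.0023. Col3a1 fell by 0.89 ± 0.07 (adjusted p = 5.1e-06), and the type V chains Col5a1, Col5a2 and Col5a3 by 0.67 ± 0.12, 1.0 ± 0.10 and 1.0 ± 0.11. Of the basement membrane chains, Col4a1 changed by -0.42 and Col4a2 by -0.54, both of which passed, and Col15a1 -0.01 and Col18a1 0.19, which did not.

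Enzymes that fold and crosslink collagen showed 6 falls of 21 tested and no rise (median -0.28, 28.6% called against 7.23% of all genes). They showed 3 falls without any 1 of the 3 Dex 24 h arrays or Dex 6 d replicate 1. The prolyl hydroxylases P4ha1 and P4ha2 fell by 1.01 ± 0.14 and 0.84 ± 0.13, and the lysyl hydroxylase Plod2 by 1.15 ± 0.14 (adjusted p = 2.2e-04). Plod2 had a change of 1.38 at 2 h, -1.18 at 24 h and -2.33 at 6 d against control. Lysyl oxidase, Lox, was also called (-0.81 ± 0.21, adjusted p = 0.0299), a call lost without any 1 of 5 arrays.

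Among proteoglycans and matricellular proteins 15 of 40 tested fell and 1 rose (median -0.25, 40% called against 7.23% of all genes). When 1 array was left out 11 to 16 fell. Lum, lumican, a small proteoglycan that spaces collagen fibrils, read 11.39, 11.38 and 12.16 in control, 9.40, 9.56 and 10.15 at 24 h and 6.36, 7.10 and 7.76 at 6 d. Replicate 3 was the highest in each of these groups, as it was for Car3, Dpt, Fmod and Postn. The same held for Dcn, Ogn, Fn1, Lox and Col3a1. At 6 d replicate 3 was not the highest for Col1a1, Col5a1, Col5a2 or Col5a3. Lum stepped down without overlap and fell by 2.63 ± 0.35 (adjusted p = 5.0e-04), or 6.19-fold. Its relatives Fmod, Dcn and Ogn fell by 1.86 ± 0.32, 1.33 ± 0.22 and 1.04 ± 0.21, and Dpt, dermatopontin, by 1.70 ± 0.26 (adjusted p = 0.0012). Fibronectin, Fn1, fell by 0.98 ± 0.19 and periostin, Postn, by 1.38 ± 0.25. The other probe set of Fn1 above the filter changed by -0.38. The activin subunit gene Inhbb read 9.87, 9.80 and 10.19 in control, 6.37, 6.44 and 6.63 at 24 h and 4.67, 5.16 and 4.89 at 6 d, the last near background, so its change of -1.57 ± 0.14 (adjusted p = 1.2e-05) is a lower limit. Follistatin, Fst, which binds activins, fell by 0.89 ± 0.13 (adjusted p = 9.0e-04).

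Of the genes with the largest falls that lie on no list above, Wfdc21, a secreted protease inhibitor, read 12.12, 12.14 and 12.29 in control, 12.29, 12.34 and 12.61 at 24 h and 9.49, 9.97 and 10.07 at 6 d. The control and 24 h arrays were close to each other and all 6 d arrays were lower, a change of -2.57 ± 0.13 (adjusted p = 3.0e-07), or 5.95-fold. Ifi27l2a, an interferon-inducible mitochondrial protein, fell by 1.80 ± 0.32 (adjusted p = 0.00357). On the list of chemokines and cytokines 3 of 30 fell and 2 rose (median -0.02, 16.7% called against 7.23% of all genes). None rose without Dex 24 h replicate 1. Ccl11, the eosinophil attractant eotaxin, read 8.61, 8.49 and 8.97 in control, 5.26, 5.21 and 5.81 at 24 h and 4.65, 3.92 and 4.04 at 6 d. It was thus far below control by 24 h. Its later change of -1.22 ± 0.24 (adjusted p = 0.00695) ended near background and is a lower limit. The share of its loss that lay before 24 h is therefore not known. Cd14, a receptor for lipopolysaccharide, rose by 0.97 ± 0.11 (adjusted p = 1.2e-04) and the adhesion molecule Vcam1 by 0.78 ± 0.11 (adjusted p = 8.0e-04). Vcam1 was 1 of the 2 rises among 24 genes of the NF-kB pathway, where none fell. The share called there, 8.33%, was near the 7.23% of all genes. On that list 1 rose without Dex 24 h replicate 1 or 2 or Dex 6 d replicate 1 or 2.

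Genes of insulin action moved both ways. Of 43 tested genes of insulin signalling and glucose uptake, 3 fell and 2 rose (11.6% called, against 7.23% of all genes), with a median of 0.01; without any 1 of the Dex 24 h arrays 2 fell and none rose, and 1 rose without any 1 of 7 others. Slc2a4, the insulin-responsive glucose transporter GLUT4, read 10.74, 10.96 and 10.84 in control, 10.81, 10.83 and 10.75 at 24 h and 10.11, 9.93 and 10.21 at 6 d. The control and 24 h arrays overlapped, the 6 d arrays were all lower, and the change was -0.71 ± 0.10 (adjusted p = 6.3e-04). Irs1, the receptor's adaptor, was lower than control at 2 h, by a change of -1.73, and changed by 0.04 ± 0.11, adjusted p = 0.906 between 24 h and 6 d; with array weights its change was -0.18, which passed. Tbc1d4, which restrains GLUT4 traffic, was called higher (0.77 ± 0.22, adjusted p = 0.0468), but lost the call without any 1 of 10 arrays, with an adjusted p up to 0.17.

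In glycolysis and the hypoxia response 8 of 26 tested genes fell and none rose (median -0.29, 30.8% called against 7.23% of all genes). When 1 array was left out 6 to 11 fell. Pfkfb3, which makes the activator of phosphofructokinase, read 9.67, 9.57 and 9.54 at 24 h and 8.47, 8.54 and 8.03 at 6 d, a change of -1.24 ± 0.13 (adjusted p = 4.9e-05). Ldha, the lactate dehydrogenase A chain, fell by 0.70 ± 0.08 (adjusted p = 1.9e-04) and Pfkfb4 by 0.54 ± 0.11. Ankrd37, a hypoxia-inducible gene, fell by 1.64 ± 0.28 to a mean near background. Of 17 glycogen genes 4 fell and 1 rose (29.4% called). The phosphorylase Pygl fell by 1.27 ± 0.21, the targeting subunit Ppp1r3c by 0.81 ± 0.17 and the branching enzyme Gbe1 by 0.64 ± 0.13. The phosphorylase kinase subunit Phka2 rose by 0.62 ± 0.10 (adjusted p = 0.00117).

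Mitochondrial lists had medians near 0, and the shares called were 4.69% for oxidative phosphorylation, 10.7% for the TCA cycle and 4.55% for fatty acid oxidation, against 7.23% of all genes. Of 64 subunits of oxidative phosphorylation 2 fell and 1 rose (median 0.01), of 28 genes of the TCA cycle and pyruvate fate 2 fell and 1 rose (median -0.03), and of 22 genes of fatty acid oxidation 1 rose and none fell (median 0.03); without Dex 24 h replicate 1 or 2 none of these was called, and without control replicate 3 the TCA list had 4 falls. On the thermogenic list 2 of 10 fell and none rose (20% called). Cox7a1, the heart, muscle and brown fat form of a cytochrome oxidase subunit, read 11.27, 11.48 and 11.17 in control, 9.64, 9.78 and 9.35 at 24 h and 7.91, 7.70 and 8.52 at 6 d. It stepped down without overlap, by 1.55 ± 0.18 from 24 h (adjusted p = 1.2e-04), and Cox8b fell by 0.37 ± 0.07 (adjusted p = 0.00373).

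**Figure D4:**
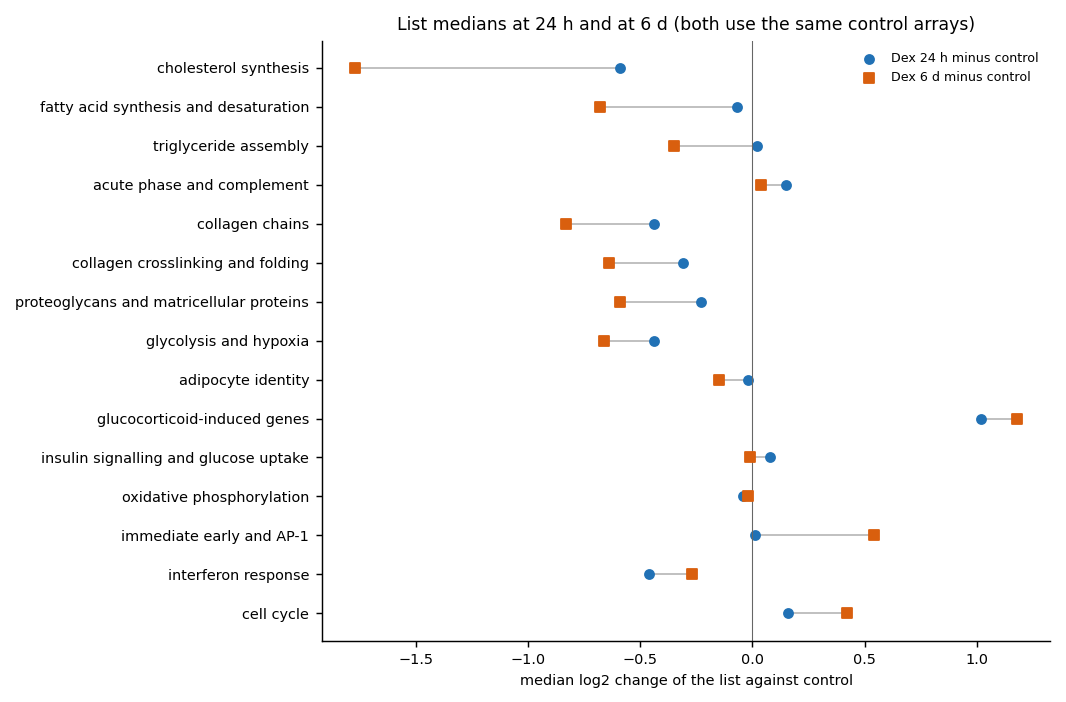
Median log2 change against the 3 control arrays (horizontal axis) of 15 gene lists at 24 h and at 6 d, 1 line per list, with a circle for 24 h and a square for 6 d. The glucocorticoid-induced genes go from 1.02 to 1.18 and cholesterol synthesis from -0.59 to -1.77; both points of a line share the control arrays.

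The remaining lists were small, and the share of members called, in either direction, is given against 7.23% of all genes. It was 33.3% on the LXR list, 26.1% on that of TGF-beta, activin and IGF, 21.7% for proteases, 18.5% for adipogenic factors, 17.9% for the lysosome and 17.6% for fatty acid uptake. It was 13.3% for oxidant defence, 11.1% for amino acid breakdown, 10.7% for the unfolded protein response, 10.3% for ribosomal proteins and 3.23% for the proteasome. In the uptake of fatty acids 3 of 17 tested genes fell and none rose; Acsl3, which activates fatty acids, fell by 1.01 ± 0.14 (adjusted p = 6.7e-04) and Lmf1, which matures lipoprotein lipase, by 0.86 ± 0.12 (adjusted p = 7.2e-04). Of 12 LXR and efflux genes 3 fell and 1 rose (Srebf1), and of 23 genes of TGF-beta, activin and IGF signals 5 fell and 1 rose. Lysosome and autophagy genes had 5 falls of 28 and no rise, with beta-galactosidase, Glb1, at -0.76 ± 0.14, adjusted p = 0.00506. Of 28 unfolded protein response genes 3 fell and none rose, and 1 of 31 proteasome genes fell. Ribosomal protein genes had 3 rises of 29 and no fall, and 26 of the 29 changes were above 0 (median 0.10). The adipogenic factors had 3 rises and 2 falls of 27, the proteases and their inhibitors 2 and 3 of 23, oxidant defence 2 and 2 of 30, and branched-chain amino acid breakdown 1 and 1 of 18. Among the adipogenic factors Zfp467, a zinc finger factor, fell by 0.70 ± 0.13 (adjusted p = 0.00377), and Vdr was on this list too. These small counts turned on single arrays. Without Dex 24 h replicate 1, and likewise without replicate 2, no LXR gene and no protease rose, 3 of the TGF-beta list fell, 1 ribosomal gene rose, no proteasome gene fell, and 1 adipogenic factor rose and 1 fell. Falls in the unfolded protein response numbered 0 without Dex 24 h replicate 1 and 5 without control replicate 3 or Dex 6 d replicate 3. Lysosome falls numbered 3 without Dex 24 h replicate 3 or Dex 6 d replicate 2, ribosomal rises 5 without Dex 6 d replicate 2, and fatty acid uptake rises 2 without control replicate 3. The counts of the protease, oxidant and amino acid lists moved by 1 or 2 without 8 to 11 of the 12 arrays.

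Of 39 tested interferon genes 19 were called lower than control at 24 h (median -0.46) and 11 at 6 d (median -0.27). Of all 12156 genes, 1026 were called lower than control at 24 h and 1940 at 6 d. Between 24 h and 6 d 15.4% of the list was called, against 7.23% of all genes. Gbp7, an interferon-induced GTPase, read 9.04, 9.16 and 9.37 in control, 7.94, 8.29 and 8.12 at 24 h and 8.86, 9.61 and 8.85 at 6 d, a rise of 0.99 ± 0.19 (adjusted p = 0.00479). Psmb10, a subunit of the immunoproteasome, behaved alike (0.63 ± 0.09, adjusted p = 5.9e-04). From 24 h to 6 d 5 of the 39 rose and 1 fell (Gbp6, whose other probe set had the opposite sign and whose call was lost without any 1 of 10 arrays; its changes against control were -1.41 at 24 h and -2.04 at 6 d), with a median of 0.15, and the count of rises was 2 without Dex 24 h replicate 1 and 3 without Dex 24 h replicate 3, Dex 6 d replicate 2 or Dex 6 d replicate 3. Outside that list, 24 h levels below control and 6 d levels close to it were seen in Acta2, smooth muscle actin, at 9.04, 8.97 and 8.93 in control, 7.78, 7.75 and 8.05 at 24 h and 8.92, 9.60 and 8.67 at 6 d (1.2 ± 0.18, adjusted p = 0.00103), and in the clock repressor Cry1 (1.16 ± 0.17, adjusted p = 8.3e-04), with changes against control of -1.04 at 24 h and 0.13 at 6 d. Gbp7, Psmb10, Acta2 and Cry1 were set together after their values were seen.

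Clock genes moved both ways: 2 of 15 rose and 4 fell (40% called, against 7.23% of all genes). However, 4 rose without Dex 6 d replicate 3, and 1 rose without any array but that or control replicate 3. The falls numbered 2 without Dex 24 h replicate 1 or 2 or Dex 6 d replicate 1. Besides Cry1, Rora, an activator of the loop, fell by 0.60 ± 0.11 (adjusted p = 0.00555; 1 of its 7 other probe sets had the opposite sign) and its output factor Dbp by 0.65 ± 0.11 (adjusted p = 0.00201). The time of day of each harvest is not given in the sources used here. Of the contractile genes, Myh11, smooth muscle myosin, fell by 0.75 ± 0.13 (adjusted p = 0.0034) where Acta2 rose. On that list 2 of 11 rose and 1 fell (27.3% called).

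The count on the cell cycle list turned on single arrays. Of 32 tested, 3 rose and 1 fell (12.5% called, against 7.23% of all genes), with a median of 0.17. Without Dex 6 d replicate 2 the counts were 1 and 1 and the median -0.04. Of the list 1 rose without any 1 of the Dex 24 h arrays, and 5 rose without control replicate 3 or Dex 6 d replicate 3. The mean level of the list was 7.78 on Dex 6 d replicate 2 and 7.24 and 7.20 on the other arrays of that group, where the 24 h arrays had 7.23, 7.21 and 7.32. That array was the highest of its group for 27 of the 32 genes, and it was the array with the 3' minus 5' difference of 0.777; the part of that difference in the result was not tested. Top2a, a topoisomerase of dividing cells, read 6.49, 6.41 and 6.61 at 24 h and 6.88, 8.0 and 7.09 at 6 d (0.82 ± 0.23, adjusted p = 0.0427, and 0.48 with adjusted p = 0.0856 without that array); its call was lost without any 1 of 7 arrays, the Dex 2 h and Dex 24 h arrays among them, with an adjusted p up to 0.139. The other probe set of Top2a above the filter changed by 0.15. The survivin gene Birc5 changed by 0.19 ± 0.29, adjusted p = 0.799 and the cyclin gene Ccnd1 by 0.70 ± 0.14, adjusted p = 0.00899. Ccnd1 kept its call without Dex 6 d replicate 2 at 0.52.

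Genes of the first hours were read in the later interval. The 2 h arrays are not among the 6 compared, but both calls came from the same 12-array fit. The 2 calls share 1 estimate of each gene's spread, so a gene with a small spread passes both more readily. The part of this in the shares below was not tested. At 2 h against control 610 genes rose (5.02% of those tested) and 410 fell (3.37%). Of the 610, 43 rose again from 24 h to 6 d (7.05%, against 1.94% of all genes), 70 fell (11.5%, against 5.29%) and 497 were not called, with a median change of -0.0159. Of the 410, 16 rose (3.9%), 57 fell (13.9%) and 337 were not called, with a median of -0.073. Early genes were thus called later in both directions and had medians close to that of all genes. Slc39a14, a zinc and iron transporter, was an early gene that rose again. It read 6.09, 6.23 and 6.15 in control and 8.71, 8.72 and 8.85 at 2 h. At 24 h it read 8.19, 8.28 and 8.13 and at 6 d 8.99, 8.89 and 9.11 (0.80 ± 0.10, adjusted p = 2.2e-04). Its 3 other probe sets above the filter changed by 0.23 to 0.49. S100a8, a calcium-binding alarm protein, went the other way: 8.0, 7.92 and 7.80 at 2 h, 7.34, 7.38 and 7.90 at 24 h and 4.45, 5.12 and 5.18 at 6 d, the last near background (-2.62 ± 0.22, adjusted p = 1.1e-05).

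The TNF course, at a dose not given in the sources used here, has the same interval of culture and shares no array with the Dex comparison, so each gene's change over the same interval can be set against it. TNF 6 d replicate 2 was left out of this fit, because the SD of its values was 2.04, where the 12 control and Dex arrays had 2.44 to 2.51, leaving 2 arrays at TNF 6 d. The change from 24 h to 6 d differed between Dex and TNF for 876 genes (7.21%), 374 with the greater change under Dex and 502 with the lesser; 322 of the 879 genes called for Dex (36.6%) were among them. The count was 266 with all 21 arrays and 440 without TNF 6 d replicate 3, a fit in which TNF 6 d has 1 array that is assumed to vary like the other groups. Across the 12156 genes the 2 changes had a Pearson correlation of 0.0133 and a Spearman correlation of 0.0365, given as a description, since genes are not independent replicates.

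Cholesterol synthesis genes had a median change of -0.01 with TNF. By the test of the difference 15 of 20 members had a lower change under Dex, against 502 of all 12156 genes. Fdps changed by -1.56 with Dex and 0.07 with TNF (difference -1.63 ± 0.17, adjusted p = 3.9e-06). Lum fell with Dex and read 10.22, 10.06 and 9.84 at TNF 24 h and 11.85, 10.38 and 12.59 at TNF 6 d, a TNF change of 2.18 without its replicate 2 and a difference of -4.81 ± 0.54 (adjusted p = 8.2e-06), the largest of the genes named. On the proteoglycan list 19 of 40 members passed that test with a lower change under Dex and 1 with a higher one. Egr1 rose with Dex and changed by -1.41 with TNF (difference 2.85 ± 0.27, adjusted p = 1.4e-06). By the same test 18 of 35 immediate early genes had a greater change under Dex, against 374 of all 12156 genes.

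Other changes were alike in direction. Ldha changed by -0.70 with Dex and -1.01 with TNF, Cox7a1 by -1.55 and -1.90, Ddit4 by -1.11 and -1.01, and Plin4 by -0.52 and -0.55. None of these 4 passed the test of the difference (adjusted p from 0.262 to 0.95), which does not show that they were equal; the differences were 0.31 ± 0.15, 0.35 ± 0.29, -0.09 ± 0.29 and 0.03 ± 0.14. For Itih4 both changes were upward, 3.14 with Dex and 1.35 with TNF, and differed by 1.79 ± 0.32 (adjusted p = 9.1e-04). Slc2a4 changed by 0.02 with TNF, a difference of -0.74 ± 0.16 (adjusted p = 0.00686).

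**Figure D5:**
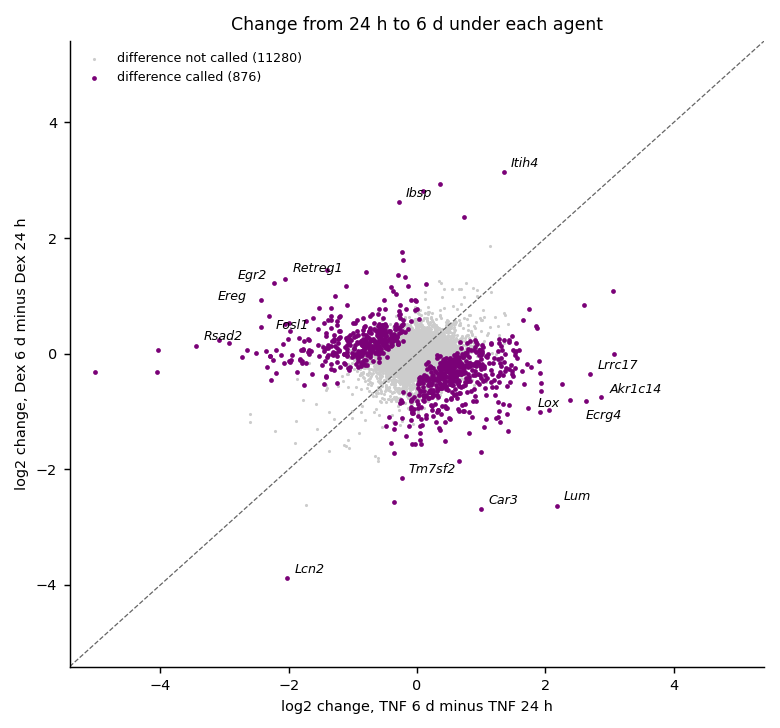
Log2 change from 24 h to 6 d with Dex (vertical axis) against that with TNF (horizontal axis), 1 point for each of the 12156 genes; the dashed line marks equal change. The 876 genes whose changes differed are coloured, and Lum lies far below the line at a fall with Dex and a rise with TNF.

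Marker genes were read to see whether the kind of cells differed between the groups. The adipocyte markers had mean levels of 11.88 to 12.01 on the 24 h arrays and 11.65 to 11.86 on the 6 d arrays; 1 of 7 tested fell (Slc2a4), Lep was below the threshold on all 6 arrays, and Plin1 and Cfd were not matched. The preadipocyte and fibroblast markers had 8.71 to 8.81 and 8.35 to 8.58, and 1 of 7 fell (Dcn), beside which the falls of the matrix genes stand; the part of such cells in those falls was not tested. On the longer list of preadipocyte and fibroblast genes 3 of 18 tested fell and none rose (16.7% called, against 7.23% of all genes). On it 1 rose without control replicate 1 or 3. Macrophage markers were near background, with 8 of 10 below the threshold on all 6 arrays, and so were 5 of 6 endothelial markers. Of the longer lists, 1 of 7 tested macrophage genes (Cd14, 14.3% of that list) and none of 3 endothelial genes was called. Myofibroblast markers had 5.72 to 5.86 and 5.78 to 6.23, with Myl9 and Cnn1 below the threshold and Acta2 higher at 6 d. Markers of dividing cells had 6.31 to 6.42 and 6.37 to 7.35, the highest on the array named above for the cell cycle list.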

How the data were processed

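The deposited values are log2 expression values of 45101 probe sets, made by the authors with RMA, per the submitters' processing notes; its version and background settings are not given in the sources used here, and values ran from 2.70 to 15.06. Array number, 3 a group, limits the precision. Of the probe sets, 34958 listed 1 gene in the platform annotation, 932 several and 9211 none; 34754 symbols were updated through RefSeq. The brightest probe set stood for each of 18194 genes. The 12156 genes tested were above 5.34, the median of all values, on at least 3 arrays of the whole series, TNF arrays included. They were tested on the 12 control and Dex arrays with limma 3.58.1 (in R 4.3.3, with the data.table package, version 1.17.8). The fit had a mean for each of 4 groups, 8 residual degrees of freedom, trended moderation, Benjamini-Hochberg adjustment and threshold 0.05. TNF arrays stayed out of this fit, a choice made knowing that TNF 6 d replicate 2 stands apart; the fit with the other 8 TNF arrays is an alternative. The Dex and TNF difference was fitted on 20 arrays without it. An exact permutation test of 3 against 3 cannot go below 0.1, so none is reported for single genes. The scripts were tested on simulated data. Replicate numbers were not taken to pair the arrays compared: deviations of same-numbered Dex 24 h and Dex 6 d arrays correlated at 0.15, -0.0578 and 0.0328. Control and Dex 24 h arrays correlated at 0.233, 0.385 and 0.447, and each other pair of these 4 groups had at least 1 value below 0.1.

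Named genes were, by rule, the 12 highest and 12 lowest called genes that did not overlap and kept the call without Dex 6 d replicate 2, up to 5 called members of each of 40 lists, 28 fixed genes, and genes from the 2 h response (up to 4 each way) and the TNF difference (up to 6 each way). The lists overlap. The members, lists and rule were chosen with earlier results of these data known. Alternatives were other array sets, replicate blocks, filters, probe set means, scalings, moderation, array weights, a 3' minus 5' covariate, thresholds and leaving out each array.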

Additional observations from a re-analysis of the deposited data

Results flagged for a closer look

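The change from 24 h to 6 d differed between Dex and TNF for 876 genes by the test of the difference itself (limma, 20 arrays). The genes with the largest differences, Dex minus TNF on the log2 scale, lay on both sides. Differences above 0 were 2.91 for Ibsp, 3.35 for Retreg1, 3.45 for the early growth response gene Egr2, 3.37 for the EGF-family ligand Ereg, 2.96 for the AP-1 gene Fosl1 and 3.58 for the antiviral gene Rsad2. The Dex 24 h means of Ibsp, Egr2 and Ereg, and the TNF 6 d arrays fitted of Ibsp, Egr2 and Fosl1, were near background (5.34 or below). The differences of Egr2, Ereg and Fosl1 are therefore lower limits. For Ibsp the TNF 24 h arrays were near background as well (3.96, 3.70 and 3.88). Its change under TNF is thus not known in either direction, and its difference is not shown to be a lower limit. On the control, Dex, TNF 24 h and TNF 6 d arrays Ibsp exceeded 5.34 only at Dex 6 d, so among these it met the filter only through that group. Of the 6, Fosl1 and Rsad2 did not pass the Dex comparison by themselves. Differences below 0 were -3.06 for the secreted protein Lrrc17, -3.61 for the steroid dehydrogenase Akr1c14, -3.19 for lysyl oxidase (Lox), -3.46 for Ecrg4, -4.81 for lumican (Lum) and -3.68 for the carbonic anhydrase Car3. Of these, Lrrc17 and Akr1c14 did not pass the Dex comparison by themselves, Lox and Ecrg4 lost that call without any 1 of 5 and of 6 arrays (adjusted p up to 0.121 and 0.143), and 1 of the 2 other probe sets of Ecrg4 had the opposite sign. TNF 6 d had 2 arrays in this fit, and 1 of the TNF 24 h arrays, replicate 3, had a 3' minus 5' difference of 0.683 and 235 genes over 1 log2 unit from both of its mates; its part in these differences was not tested.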

How the results depend on the processing

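The 879 calls (236 higher, 643 lower) became 83 (30 and 53) with all 21 arrays, 547 (136 and 411) with all of them but TNF 6 d replicate 2, 4326 (1456 and 2870) with array weights, 109 (32 and 77) with a 2-fold minimum and 388 (96 and 292) at an adjusted p below 0.01. Leaving out 1 array gave 442 to 1172 calls, 116 to 334 higher and 326 to 838 lower. Median centring gave 352 higher and 449 lower, quantile normalization 315 and 506, cyclic loess 284 and 555. The replicate block gave 1034 calls on 12 arrays and 611 on the 6 compared, and 1011 in the Dex and TNF difference; the numbers did not meet the limit for pairing in the groups compared. The difference from TNF (876; 374 and 502) had 266 calls (179 and 87) with all 21 arrays, and 440 to 974 (205 to 421 and 235 to 575) with 1 array left out. The called genes that are named kept call and direction in 3998 of 4559 values under alternatives and lost the call in 561, of which 120 were with all 21 arrays and none with array weights, robust moderation or the 12-array block; Irs1 (0.04) reversed to -0.18 with array weights. Of 1040 list medians under alternatives 93 moved by over 1 SD, and the cell cycle median reversed, from 0.17 to -0.04 without Dex 6 d replicate 2. Levels near background limit folds of dim genes. The causes of these shifts were not tested.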
